A study of Mus musculus with 8 samples.

Results

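The 6 genes described here encode the mouse Fc gamma receptors, their adaptor Fcer1g and the related adaptor Tyrobp. They were picked by name from the 32285 genes of the count table, with earlier results of these data known. Fcgr1, Fcgr3 and Fcgr4 are the 3 activating receptors for IgG, Fcgr2b is the inhibitory one, and Fcer1g and Tyrobp are the 2 adaptors. Each gene was followed in macrophages, monocytes, dendritic cells (DCs), granulocytes, NK cells and type 1 innate lymphoid cells (ILC1) that had infiltrated beta cell grafts.

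Fc gamma receptors bind the constant part of IgG and so link antibody-coated targets and immune complexes to phagocytosis, killing and cytokine release. The activating receptors carry no signaling motif of their own and depend on the common gamma chain, Fcer1g, whose ITAM tyrosines are phosphorylated by Src family kinases and recruit Syk. Fcgr2b carries an ITIM in its own tail, recruits the phosphatase SHIP1 (Inpp5d) and dampens signals from the activating receptors on the same cell. Tyrobp (DAP12) is the sister adaptor of Fcer1g and serves receptors such as Trem2 and activating NK receptors, and Fcgr3 with Fcer1g forms the CD16 complex through which NK cells kill antibody-coated cells.

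NIT-1 cells, a beta cell line derived from the NOD mouse, were grown under the skin of immunodeficient NOD.scid mice, with wild type (WT) cells in one flank and Rnls mutant (Rnlsmut) cells in the other. All hosts then received splenocytes of recently diabetic NOD mice through a vein, and grafts were removed 10 or 17 days after that transfer. Living CD45+ cells were sorted, each graft was marked with a hashtag antibody, and the 4 grafts of 1 genotype and 1 day made up 1 droplet library. The groups were WT day 10, Rnlsmut day 10, WT day 17 and Rnlsmut day 17, with 4 grafts each and 16 grafts in all. The mutation was in the grafted beta cell line and not in the sorted immune cells, and Rnls itself was not analysed here. NOD.scid hosts lack T and B cells but keep their own myeloid and NK cells, so host and transferred cells of those types cannot be told apart, and since each group was 1 library, group and library cannot be told apart either. The ages and sexes of the mice were not given in the sources used here, nor was it said which hashtag numbers shared a mouse.

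The table held 22441 cells in 12 deposited cell types and 29 clusters, with a median of 3520 UMIs (counted transcript molecules) per cell and 1742746 to 9729233 UMIs per graft. WT day 17 stood apart, with the fewest cells (2690, against 5482 to 7617 in the other libraries) and the highest median depth (5902 UMIs, against 3083 to 3453.5). Between libraries 42 barcodes were shared, which covers 84 cells. Listed markers were looked for in the cells of each labelled type. Detected were 10 of 10 macrophage, 7 of 7 monocyte, 10 of 10 DC, 8 of 8 granulocyte and 9 of 9 NK cell markers. ILC1 had 8 of 9, with Zfp683 at 0. Detection alone does not set a type apart, since all 10 macrophage markers were also detected in DCs and NK cells. Levels are given in CPM, which are UMIs of a gene scaled to 1000000 UMIs of that cell type in that graft, and grafts with fewer than 10 cells of a type were left out. This left all 16 grafts for macrophages, DCs and NK cells, 15 for monocytes, 12 for granulocytes and 8 for ILC1. Replicates were separate grafts, and the ± values are SDs over grafts.

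In GENCODE vM21 on GRCm38, 4 of the 6 genes lie within 275749 bases of chromosome 1, in the order Fcgr2b (170958617 to 170976547, minus strand), Fcgr4 (171018920 to 171029761, plus), Fcgr3 (171051174 to 171064935, minus) and Fcer1g (171229572 to 171234365, minus). Fcgr1 lies on chromosome 3 (96282909 to 96293969, minus) and Tyrobp on chromosome 7 (30413760 to 30417585, plus). Fcgr2b overlaps the antisense gene Gm38204, Fcgr3 the microRNA Mir6546 and Fcgr4 the small nuclear RNA Gm26110. Gm38204 lies on the opposite strand, so its reads can be told apart only where strand was used in counting. Mir6546 and Gm26110 lie on the same strand as the gene they overlap, so strand cannot tell their reads apart.

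The 250 bases before the annotated starts of the activating receptors are shown because the text below reports values for interferon regulatory factors, whose motif is among those looked for there. The windows came from RefSeq on GRCm38.p6, which had one for 5 of the 6 genes and none for Tyrobp. On both strands 3 patterns were searched, the STAT element TTCNNNGAA, the interferon-stimulated response element core (GAAA, any 2 bases, GAAA) and the PU.1 core GAGGAA. Matches are in capitals, and PU.1 cores on the opposite strand read as TTCCTC. Sequences run 5′ to 3′ on the strand of the gene.
Fcgr1, chr3:96293970-96294219, minus strand: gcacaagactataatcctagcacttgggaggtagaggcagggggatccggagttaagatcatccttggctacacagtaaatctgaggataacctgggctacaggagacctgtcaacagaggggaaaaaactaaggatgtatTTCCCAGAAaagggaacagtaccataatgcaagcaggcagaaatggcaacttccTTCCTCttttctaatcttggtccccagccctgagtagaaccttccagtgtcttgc
Fcgr3, chr1:171059404-171059653, minus strand: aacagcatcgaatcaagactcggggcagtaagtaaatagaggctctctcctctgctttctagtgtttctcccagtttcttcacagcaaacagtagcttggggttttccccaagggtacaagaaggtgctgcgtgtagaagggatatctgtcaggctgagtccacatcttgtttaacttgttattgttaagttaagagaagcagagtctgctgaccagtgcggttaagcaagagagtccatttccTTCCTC
Fcgr4, chr1:171018676-171018925, plus strand: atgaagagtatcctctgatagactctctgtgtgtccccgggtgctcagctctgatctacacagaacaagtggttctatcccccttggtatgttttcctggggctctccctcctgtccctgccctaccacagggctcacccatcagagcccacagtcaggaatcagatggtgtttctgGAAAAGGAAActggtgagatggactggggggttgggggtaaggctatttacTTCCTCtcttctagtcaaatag

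Fcgr1 held a STAT element 109 to 101 bases before its start, a pattern found in 7.02% of 32851 such windows in the genome (2306), and a PU.1 core 55 to 50 bases before it. Fcgr4 held the interferon response core 73 to 64 bases before its start, found in 2.98% of windows (978), and a PU.1 core 22 to 17 bases before it. Fcgr3 held only a PU.1 core, 6 to 1 bases before the first of its 2 annotated starts. The PU.1 core was present in 23.3% of all windows (7639). The windows of Fcgr2b and Fcer1g held none of the 3 patterns, and no matches of different patterns overlapped.

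The 4 receptors were found mostly in the myeloid types, while the 2 adaptors were also high in NK cells and ILC1. Cell types came from clusters of these same cells, so the levels across types are a description without a test. Fcgr1, the only high-affinity receptor, was highest in monocytes (402 ± 159.6 CPM, n = 15) and macrophages (289.9 ± 101, n = 16), whose ranges overlapped. It was lower in granulocytes (31.8 ± 42.9), DCs (26.6 ± 21.7) and ILC1 (16.1 ± 24.8), and at 3.64 ± 5.18 in NK cells, close to CD4 T cells (4.97 ± 4.56) and CD8 T cells (6.37 ± 6.68). Fcgr3, the low-affinity activating receptor, did not separate granulocytes (397 ± 195), macrophages (362 ± 70.5) and monocytes (283 ± 94.7) from each other. All 3 lay above ILC1 (47.8 ± 30.6) and NK cells (34.3 ± 20.5), and DCs were similar to these (29.2 ± 20.0). Fcgr4, an activating receptor of intermediate affinity, was at 268 ± 175 in monocytes, 234 ± 169.7 in granulocytes and 116 ± 48.5 in macrophages, and at 8.42 ± 6.20 in DCs. The inhibitory Fcgr2b had another order, with macrophages first (212 ± 80.9), then monocytes (118 ± 64.8), granulocytes (58.4 ± 42.9) and DCs (52.9 ± 33.7). In NK cells Fcgr2b was at 3.71 and in ILC1 at 5.11 CPM.

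Fcer1g was highest in granulocytes (3033 ± 329), followed by monocytes (2664 ± 341) and macrophages (2221 ± 419), and these neighbours overlapped over grafts. ILC1 (1162 ± 226) and NK cells (1052 ± 277) came next, above DCs (706 ± 188). Tyrobp was highest in granulocytes (4497 ± 811), whose lowest graft was above every monocyte graft. Monocytes (1809 ± 249), macrophages (1392 ± 122) and NK cells (1361 ± 199) came next, and single grafts of each overlapped those of its neighbour in this order. DCs were at 1096 ± 204 and ILC1 at 709.5 ± 456. CD4 and CD8 T cells, in which these adaptors are usually low, were at 35.9 ± 18.8 and 44.9 ± 23.2 for Fcer1g and at 35.1 ± 27.8 and 44.5 for Tyrobp, and in CD4 T cells Fcer1g was higher in Rnlsmut day 17 (62.8 ± 13.7) than in the other groups (20.0 to 36.5).

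**Figure D1:**
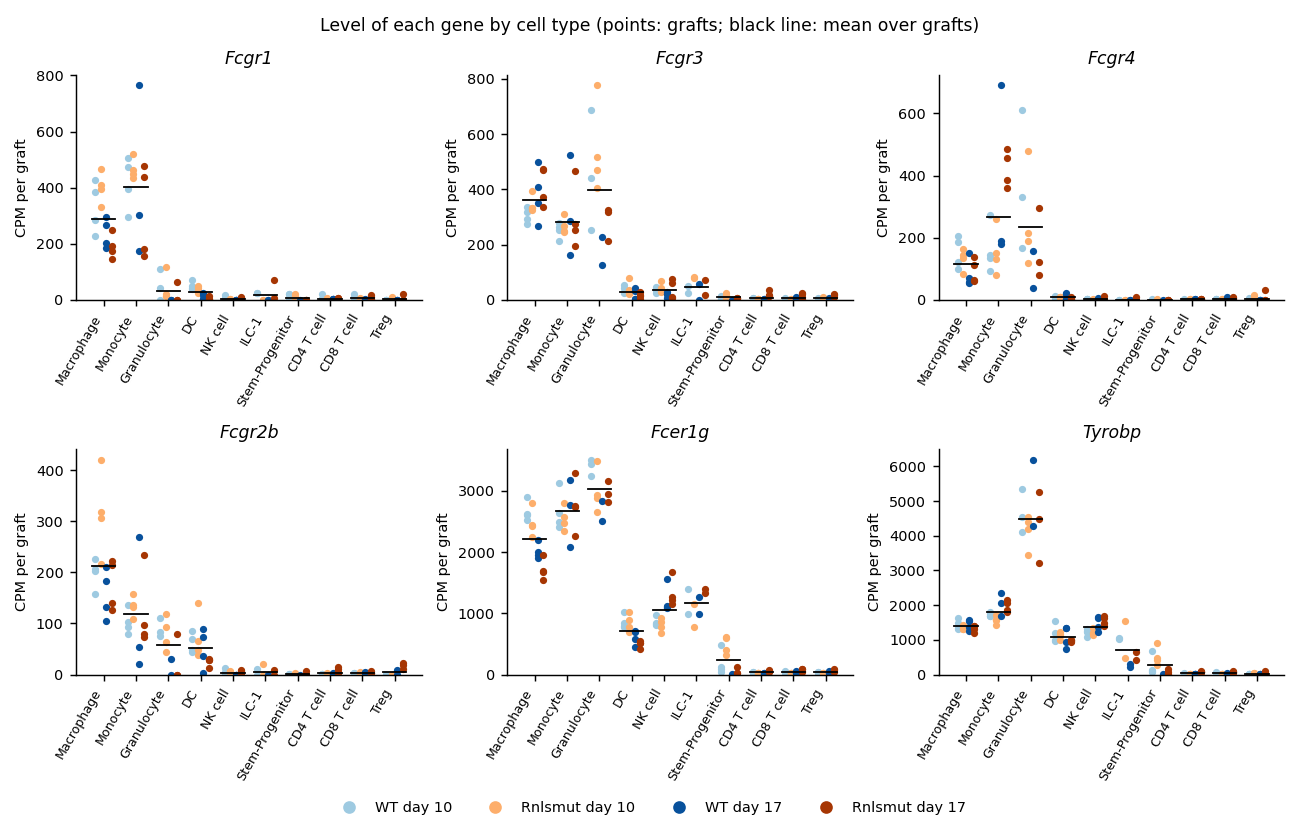
CPM of each gene (y axis, 1 panel per gene) in each cell type (x axis), with 1 point per graft coloured by genotype and day and a black line at the mean over grafts. The 4 receptors are concentrated in macrophages, monocytes and granulocytes, while Fcer1g and Tyrobp also reach means of 1052 and 1361 CPM in NK cells.

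Macrophages were 32.0% of the cells and held 38.6% of all UMIs, but 80.5% of the Fcgr2b, 79.6% of the Fcgr3, 67.4% of the Fcgr4 and 66.3% of the Fcgr1 UMIs. Monocytes, 10.4% of cells with 11.4% of the UMIs, held 30.0% of Fcgr1 and 28.7% of Fcgr4, but 13.8% of Fcgr2b and 15.8% of Fcgr3. Of Fcer1g and Tyrobp, macrophages held 64.1% and 56.7%.

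Among macrophages with a median of 4719 UMIs, 75.2% of cells had an Fcgr3 UMI, 54.5% Fcgr1, 47.2% Fcgr2b and 36.8% Fcgr4, and after thinning every cell to 1000 UMIs these shares were 30.7%, 21.2%, 16.1% and 10.6%. Activating and inhibitory receptors met in the same cells: 44.4% of macrophages had a UMI of Fcgr2b and of at least 1 activating receptor, 44.5% only of activating ones, 2.87% only of Fcgr2b and 8.30% of none. In monocytes 29.4% had both kinds and 62.3% only activating ones. By group the share with both kinds was 47.2% in WT day 10, 59.0% in Rnlsmut day 10, 51.4% in WT day 17 and 35.8% in Rnlsmut day 17 macrophages, whose median depths were 5702, 5746.5, 7715 and 3630.0 UMIs. These joint shares rise with depth and were not thinned. Of NK cells (median 2411 UMIs), 9.24% had an Fcgr3 UMI, or 3.71% after thinning, against 1.74% and 0.696% of CD4 T cells (median 2824 UMIs), which should lack the gene. The shares of NK cells with Fcgr1 (1.32%), Fcgr2b (1.06%) and Fcgr4 (0.660%) were near those of CD4 T cells (1.35%, 0.697% and 0.492%) and are read as background. Fcer1g and Tyrobp were detected in 82.9% and 87.3% of NK cells.

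The first question was whether these genes differed between immune cells of Rnlsmut and WT grafts, and no member passed the test in either direction. UMIs were summed per graft and cell type and tested by edgeR with adjustment over all genes of the type, which gave 25 tests of a member in a cell type. At day 10, 0 of 25 passed an adjusted p of 0.05 (1 had an unadjusted p under 0.05, and DESeq2 called 0), where 0.0481% of all gene and cell type tests passed (14 of 29083). At day 17, 0 of 25 passed (1 unadjusted, DESeq2 0), against 0.0344% of all tests (10). The difference of the genotype effect between days was called for 0 of 25 (0 unadjusted, DESeq2 0), against 0.107% of all tests (31).

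The closest to a genotype difference was Fcgr2b in day 10 macrophages. Its level was 204, 227, 157 and 206 CPM in the 4 WT grafts and 419.8, 217, 306 and 318 in the 4 Rnlsmut grafts. The lowest Rnlsmut graft lay among the WT grafts and the other 3 above them. The log2 fold change was 0.64 (SE 0.23, 95% confidence interval 0.15 to 1.13) with an unadjusted p of 0.0139 and an adjusted p of 0.563. At day 17 it was 0.15 (interval -0.34 to 0.65). With macrophage clusters 2, 4, 5 and 13, described below, given equal weight in each graft, the day 10 difference was 0.39. No test was made of this value, which rests on 1 to 7 cells of cluster 2 in Rnlsmut day 10 grafts. Genotype log2 fold changes of the other macrophage members at day 10 were 0.25 for Fcgr1, 0.15 for Fcgr3, -0.24 for Fcgr4, -0.13 for Fcer1g and -0.12 for Tyrobp, and at day 17 -0.30, 0.12, 0.14, -0.22 and -0.11. In NK cells, Fcer1g differed by -0.13 at day 10 and 0.13 at day 17, with grafts of both genotypes overlapping on both days.

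The second question was how the genes moved from day 10 to day 17, and here the macrophage Fc receptor system was lower at the later day in part. In WT grafts 4 of 25 tests passed, all toward lower levels at day 17: Fcgr1, Fcgr4 and Fcer1g in macrophages and Fcgr1 in DCs. In Rnlsmut grafts 6 of 25 passed: Fcgr1, Fcgr2b and Fcer1g in macrophages and Fcgr1 and Fcer1g in DCs were lower, and Fcer1g in NK cells was higher. Over all genes, 12.2% of tests passed in WT (3562 of 29083) and 18.2% in Rnlsmut grafts (5279), so much of the transcriptome differed between days. In macrophages, the 3 of 6 members called in each genotype stood beside 25.1% of all genes in WT and 42.0% in Rnlsmut grafts, the latter close to the members' share. The 10 macrophage markers summed to 11648 to 20619 CPM in the day 10 grafts and to 23245 to 37360 in the day 17 grafts of both genotypes. Day and library cannot be told apart.

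Fcgr1 in macrophages was at 426, 229, 386 and 284 CPM in WT day 10 grafts and at 186, 295, 265.5 and 202 in WT day 17 grafts, so 2 day 10 grafts lay within the day 17 range. In Rnlsmut grafts it was at 467, 408, 330.4 and 396 at day 10 and at 191, 146, 249.7 and 176 at day 17, with no overlap. The log2 fold change was -0.66 in WT (SE 0.20, adjusted p = 0.0206 by edgeR) and -1.21 in Rnlsmut grafts (SE 0.20, adjusted p = 0.000142). The gap between these changes, -0.55, did not pass (unadjusted p = 0.0601, adjusted p = 0.545). The WT call was lost without WT day 10 graft 1 or 3 or WT day 17 graft 1 or 4 (adjusted p up to 0.0804).

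Fcgr4 in macrophages was at 207, 123.5, 188 and 99.4 CPM in WT day 10 grafts and at 53.1, 57.8, 152 and 70.5 in WT day 17 grafts. Graft 3 of WT day 17 was far above its group and overlapped day 10. The fall was -1.01 on the log2 scale (SE 0.33, adjusted p = 0.0312), and leaving out any 1 of 5 grafts (WT day 10 graft 1 or 3, WT day 17 graft 1, 2 or 4) raised the adjusted p to as much as 0.104. In Rnlsmut grafts the change was -0.63 (interval -1.31 to 0.06, adjusted p = 0.131), from 132 ± 34.0 to 94.0 ± 37.8.

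Fcgr3 showed no such fall. In WT macrophages it was at 318, 292, 273 and 338 CPM at day 10 and at 349.8, 268, 501 and 409.8 at day 17, and in Rnlsmut macrophages at 347 ± 32.5 and 413 ± 69.1. The log2 fold changes were 0.16 (interval -0.17 to 0.49) and 0.12 (interval -0.21 to 0.45), neither called.

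Fcgr2b in macrophages was 315 ± 83.2 CPM in Rnlsmut day 10 grafts and 223, 126, 214 and 139.8 in the Rnlsmut day 17 grafts. The lowest day 10 graft (217) lay within the day 17 range. It fell by 0.98 on the log2 scale (SE 0.23, adjusted p = 0.00309), and the call held when each graft was left out in turn. In WT grafts, where the day 10 level was 198 ± 29.3, the change was -0.49 (interval -0.99 to 0.01, adjusted p = 0.14).

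Fcer1g in macrophages had the tightest day difference. It was at 2905, 2614, 2626 and 2530.3 CPM in WT day 10 and 2191, 2008, 1960.3 and 1902.5 in WT day 17 grafts, and at 2808.5, 2448, 2243 and 2421 in Rnlsmut day 10 and 1697, 1550.1, 1951 and 1677 in Rnlsmut day 17 grafts. All day 17 grafts lay below all day 10 grafts of their genotype. The log2 fold changes were -0.58 (SE 0.10, adjusted p = 0.000666) and -0.66 (SE 0.10, adjusted p = 8.95e-05), and both calls held without any 1 graft. Tyrobp was between 1199 and 1641 CPM in all 16 grafts, with log2 fold changes of -0.18 (interval -0.42 to 0.06) and -0.16 (interval -0.40 to 0.07).

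**Figure D2:**
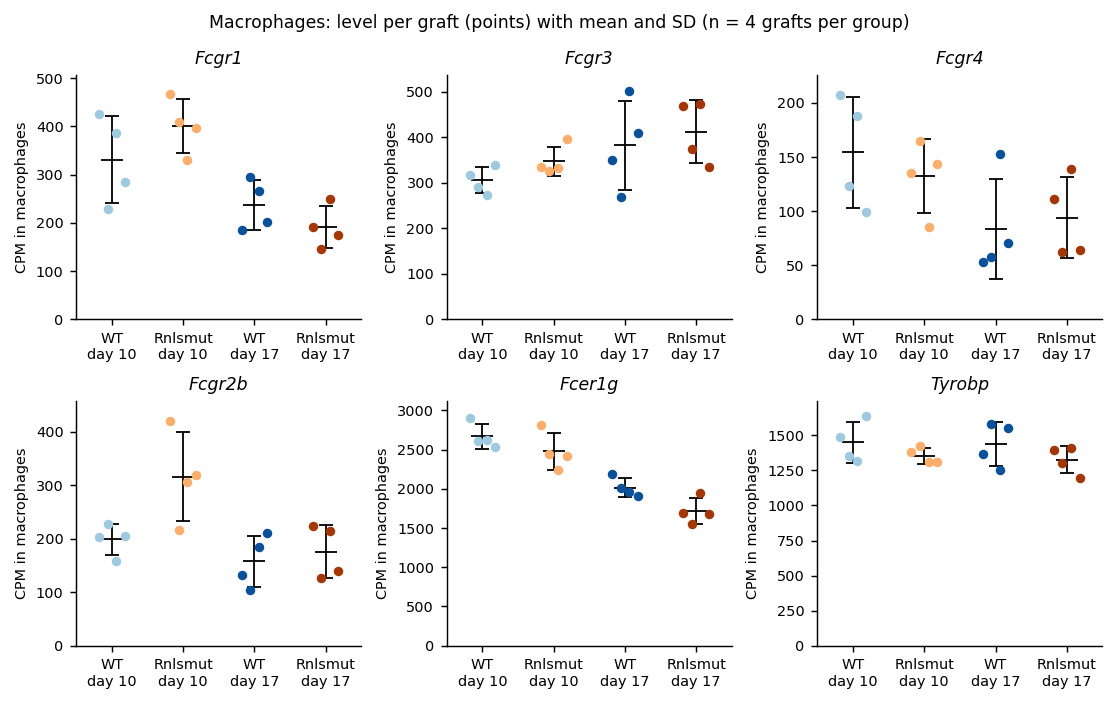
CPM in macrophages (y axis) for each gene by genotype and day (x axis), with 1 point per graft and the mean ± SD. Fcer1g separates day 10 from day 17 in both genotypes, Fcgr1 does so in Rnlsmut grafts, and Fcgr3 and Tyrobp overlap between days.

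Activating and inhibitory receptors share a ligand, so their ratio within a graft was taken as log2 of Fcgr3 over Fcgr2b UMIs plus 0.5, a value that no scaling between grafts can move. In macrophages it was 0.63 ± 0.19 in WT day 10, 0.17 ± 0.39 in Rnlsmut day 10, 1.29 ± 0.22 in WT day 17 and 1.26 ± 0.22 in Rnlsmut day 17 grafts (n = 4 each). Day 17 lay above day 10 without overlap in both genotypes. The differences were 0.66 (SE 0.15) and 1.09 (SE 0.22), each with an exact permutation p of 0.0286, the smallest that 4 against 4 grafts allow, and an adjusted p of 0.274 over the 24 ratio tests, of which 0 passed and 2 had an unadjusted p under 0.05. Such a rise over Fcgr2b without overlap was found for 19.6% of macrophage genes in WT (1457 of 7437) and 49.1% in Rnlsmut grafts (3651), so it was common where Fcgr2b itself was lower. Between genotypes at day 10 the ratio differed by -0.46 (exact permutation p = 0.0571) and at day 17 by -0.03 (p = 0.857). Fcgr4 over Fcgr2b was -0.41 ± 0.65 in WT day 10, -1.25 ± 0.64 in Rnlsmut day 10, -0.998 ± 0.57 in WT day 17 and -0.94 ± 0.22 in Rnlsmut day 17 grafts. It differed between days by -0.59 in WT and 0.31 in Rnlsmut grafts, and the groups overlapped (exact permutation p = 0.229 and 0.4). In monocytes it was 0.57 ± 0.95 in WT day 10, 0.11 ± 0.82 in Rnlsmut day 10, 1.999 ± 2.74 in WT day 17 (3 grafts) and 1.89 ± 0.87 in Rnlsmut day 17 grafts. The differences between days were 1.43 in WT (exact permutation p = 0.457) and 1.79 in Rnlsmut grafts (exact permutation p = 0.0571).

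**Figure D3:**
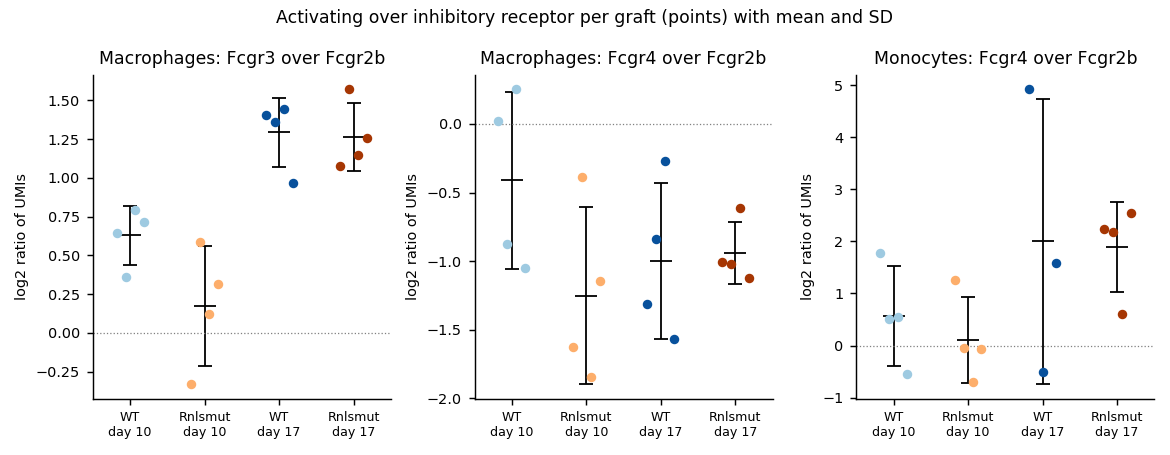
The log2 ratio of activating over inhibitory receptor UMIs per graft (y axis) by genotype and day (x axis) for Fcgr3 over Fcgr2b and Fcgr4 over Fcgr2b in macrophages and Fcgr4 over Fcgr2b in monocytes, with 1 point per graft and the mean ± SD. In macrophages, Fcgr3 over Fcgr2b is higher at day 17 in all grafts of either genotype.

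Macrophages were deposited as several clusters, and the receptors differed among them. Clusters were built on these same values, so this too is a description. Cluster 4 had the most Fcgr2b (314 ± 119 CPM) and little Fcgr4 (83.2), while cluster 13 had the most Fcgr4 (257 ± 82.2) and Fcgr1 (510.5) and the least Fcgr2b (78.4 ± 57.0). Both were high in Fcer1g (2693 and 2681), against 1955 in cluster 2 and 1590.5 in cluster 10. The macrophage markers Adgre1, Csf1r and Mrc1 were at 90.0, 214 and 84.0 CPM in cluster 4, against 96.5, 241 and 127 in monocyte cluster 1. The other macrophage markers were higher in cluster 4, such as C1qa at 437 against 86.1. The shares of macrophage clusters 4 and 13 are given next. Their shares moved with day. Cluster 4 was 51.5% of WT and 67.9% of Rnlsmut macrophages at day 10 and 7.31% and 4.89% at day 17, and cluster 13 went from 25.3% and 17.2% to 3.57% and 0.781%. Cluster 2 went the other way, from 5.44% and 1.76% to 28.6% and 42.2%.

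Within single clusters fewer day differences passed, in fits that were added after the cluster shares had been seen. In cluster 4, Fcer1g differed by 0.03 in WT and -0.16 in Rnlsmut grafts, in cluster 5 by 0.17 and -0.14, and of the clusters fitted it was called in cluster 2 of WT grafts, at -0.66 (SE 0.16, adjusted p = 0.0374, 3 against 4 grafts). Fcgr2b differed by -0.37 and -0.47 in cluster 4 and by -0.57 and -0.09 in cluster 5, none of them called. Fcgr1 was called in cluster 4 of Rnlsmut grafts, where its mean fell from 377 to 118 CPM (log2 fold change -1.72, SE 0.33, adjusted p = 0.00325), and in cluster 2 of WT grafts, from 407 to 208 (-1.16, SE 0.26, adjusted p = 0.0293). In cluster 5 it was -0.31 and -0.63 and in cluster 4 of WT grafts -0.12, not called. Fcgr4, called over all WT macrophages, was called in none of the clusters fitted. Its mean in cluster 2 of WT grafts was 288 CPM at day 10 and 77.4 at day 17 (-1.77, SE 0.48, adjusted p = 0.0641), and it differed by -0.18 and -0.35 in cluster 4, by -0.65 and 0.19 in cluster 5 and by 0.15 in cluster 12 of WT grafts. Fcgr3 differed by -0.05 to 0.49 and Tyrobp by -0.35 to 0.52 over the same fits, none called. Over all genes, calls were 2.0% in cluster 2 of WT, 3.92% and 8.95% in cluster 4 of WT and Rnlsmut, and 3.45% and 11.3% in cluster 5 of WT and Rnlsmut grafts. With clusters 2, 4, 5 and 13 given equal weight in each graft, the log2 difference between days in Rnlsmut grafts was -1.21 for Fcgr1, -0.39 for Fcgr2b and -0.20 for Fcer1g, and in WT grafts -0.47, -0.07 and -0.07. These weighted values rest on few cells, with 1 to 7 cells of cluster 2 in Rnlsmut day 10 grafts, 1 to 68 of cluster 4 in WT day 17 grafts, and 2 to 13 and 4 to 8 of cluster 13 in WT and Rnlsmut day 17 grafts, and no test was made of them.

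**Figure D4:**
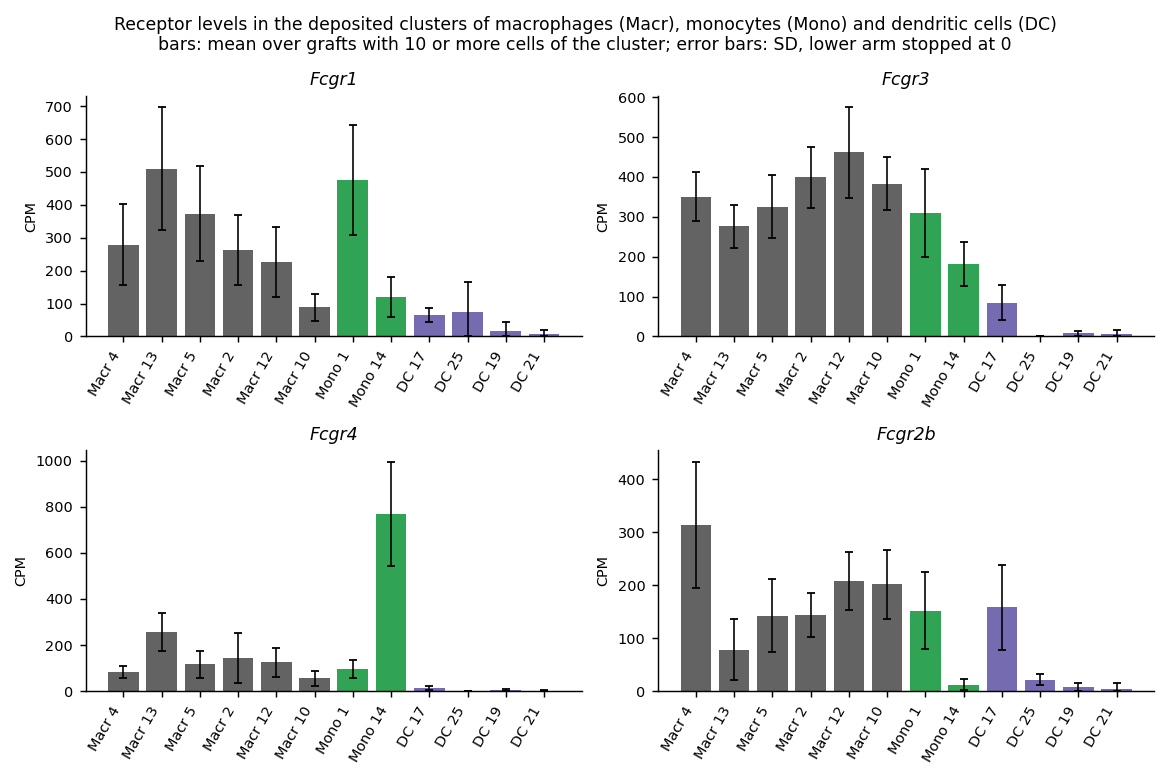
Mean CPM (y axis, bars from 0, error bars SD over grafts) of Fcgr1, Fcgr3, Fcgr4 and Fcgr2b in the deposited clusters of macrophages, monocytes and DCs (x axis). Monocyte cluster 14 is high in Fcgr4 and low in Fcgr2b (12.7 CPM), and macrophage cluster 4 is the highest of the macrophage clusters in Fcgr2b.

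Monocytes fell into a pair of clusters with opposite receptor sets. Cluster 1 held the classical monocyte markers Ly6c2 (579 CPM), Ccr2 (368) and Vcan (130), with Fcgr1 at 476 ± 168, Fcgr2b at 152 ± 72.5 and Fcgr4 at 97.3 ± 37.9. Cluster 14 had these markers at 67, 60 and 1, with Fcgr4 at 769 ± 225, Fcgr1 at 121 ± 60.7 and Fcgr2b at 12.7 ± 10.6. Fcgr3 was 310.5 and 181, and Fcer1g 2354 and 3528, in the same order. Cluster 14 was 17.7% and 21.9% of WT and Rnlsmut monocytes at day 10 and 32.3% ± 39.9 (n = 3) and 55.2% at day 17.

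Over all monocytes, Fcgr4 was at 273, 146, 135 and 92.6 CPM in WT day 10 and at 690.2, 189 and 179 in the 3 WT day 17 grafts with at least 10 monocytes, and at 259, 131, 80.6 and 152 in Rnlsmut day 10 and 387, 457, 361 and 487 in Rnlsmut day 17 grafts. In Rnlsmut grafts, all day 17 values lay above all day 10 values, while in WT they overlapped and graft 1 alone was high. The log2 fold changes were 1.10 (SE 0.41, adjusted p = 0.123) and 1.25 (SE 0.41, adjusted p = 0.093), neither called by edgeR in the main fit. DESeq2 called the Rnlsmut difference (1.33, adjusted p = 0.0438). So did edgeR in some alternative runs, such as with only the 2 groups compared in the fit (1.31, adjusted p = 0.00777). Without the filter on low counts, edgeR called the WT difference too (1.08, adjusted p = 0.000482). Within cluster 1 the Fcgr4 difference was 0.39 and -0.01, and within cluster 14 of Rnlsmut grafts 0.51 (adjusted p = 0.0995). Fcgr1 differed by -0.12 and -0.83, Fcgr2b by 0.09 and -0.26, and Fcgr3 by 0.21 and 0.04. In the main edgeR fit 0 of 12 monocyte tests passed, where 3.84% of genes passed in WT and 3.19% in Rnlsmut grafts. Graft 3 of WT day 17 held the highest Fcgr1 (765 CPM) and Fcgr2b (269.8) of its group, against 21.6 and 53.6 for Fcgr2b in the other 2. Without it Fcgr2b turned to -2.19 (adjusted p = 0.00264) and Fcgr1 to -1.23 (adjusted p = 0.0106).

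DCs carried little Fcgr1, and less of it at day 17. WT day 10 grafts were at 51.1, 72.5, 42.9 and 38.7 CPM (22 to 81 UMIs) and WT day 17 grafts at 17.9, 3.1, 2.5 and 25.3 (1 to 4 UMIs). Rnlsmut grafts were at 41.6, 33.1, 24.1 and 50.3 at day 10 and at 4.8, 4.2, 13.2 and 0 at day 17 (0 to 5 UMIs). Within each genotype no day 17 graft reached a day 10 graft, at counts that leave the size of the fall imprecise. The log2 fold changes were -2.66 (interval -3.69 to -1.62, adjusted p = 0.00205) and -2.33 (SE 0.57, adjusted p = 0.0103), the second lost without Rnlsmut day 17 graft 1 (adjusted p = 0.0616). Fcer1g in DCs was at 847 ± 141 in Rnlsmut day 10 and 500.0 ± 62.4 in Rnlsmut day 17 grafts without overlap, and fell by 0.73 on the log2 scale (SE 0.16, adjusted p = 0.00606). In WT grafts it was at 861 ± 109 and 616 ± 121 (-0.49, adjusted p = 0.0526), a difference that DESeq2 called (-0.50, adjusted p = 0.0305). It was also called by edgeR in some alternative runs, such as without likely doublets (-0.64, adjusted p = 0.0218). Background calls in DCs were 10.2% in WT and 14.6% in Rnlsmut grafts, beside 1 of 5 and 2 of 5 members.

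The DC clusters differed in these genes as well. Cluster 17, marked by Cd209a (386 CPM), had Fcgr2b at 158 ± 80.3, Fcgr1 at 65.3, Fcgr3 at 85.0 and Fcer1g at 1483. Cluster 19, marked by Xcr1 (246), had them at 7.29, 16.5, 8.14 and 336, and cluster 21, marked by Ccr7 and Fscn1, at 4.90, 7.02, 7.12 and 426. Cluster 25, with Siglech at 972, had Fcgr2b at 21.8, Fcgr1 at 75.7 ± 89.7 (n = 4), Fcgr3 at 0 and Fcer1g at 797. Its Tyrobp was at 3400.3 ± 335 against 1371 in cluster 17. Cluster 17 went from 42.8% and 38.8% of DCs in WT and Rnlsmut grafts at day 10 to 19.6% and 11.3% at day 17, while cluster 19 went from 20.6% and 19.1% to 52.0% and 59.8%. Within cluster 19, Fcer1g differed by 0.22 in WT and -0.10 in Rnlsmut grafts, neither called. Fcgr1 in that cluster went from a mean of 56.6 CPM in 3 WT day 10 grafts to 0 in 2 WT day 17 grafts, a fall that was called by edgeR (adjusted p = 0.000665), and from 6.77 to 1.87 CPM in Rnlsmut grafts (log2 fold change -1.13, adjusted p = 0.615). Calls over all genes of cluster 19 were 10.1% in WT and 9.4% in Rnlsmut grafts. Macrophage markers, 10 of 10 detected, were also counted in DCs. They summed to 594 to 1071 CPM in WT and 341 to 1359 in Rnlsmut grafts at day 10. At day 17 they summed to 918 to 1713 and 1135 to 1686, ranges that overlapped those of day 10. Their part in the Fcgr1 values was not tested.

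In granulocytes, Fcgr3 and Fcgr4 had lower means at day 17 in both genotypes and no test passed. Fcgr3 was at 443, 687 and 252 CPM in WT day 10 and 125.5 and 226 in WT day 17 grafts, and at 542 ± 163 and 286 ± 63.9 in Rnlsmut grafts, without overlap between days in either. The log2 fold changes were -1.34 (adjusted p = 0.135) and -1.04 (adjusted p = 0.175), on 4 to 37 UMIs per graft. Fcgr4 changed by -1.33 (SE 0.72) and -0.38 (SE 0.58). Fcer1g (-0.23 and -0.07) and Tyrobp (0.28 and -0.04) were near 0. Of all granulocyte genes, 2.7% passed in WT and 2.8% in Rnlsmut grafts. Fcgr1 and Fcgr2b were too low for the edgeR fit and are among the exact permutation tests of low members given below.

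NK cells moved in the other direction for Fcer1g, the chain through which CD16 and NKp46 signal. WT grafts were at 805, 832, 976 and 841 CPM at day 10 and 1118, 1555, 1090.5 and 1100.0 at day 17, and Rnlsmut grafts at 686, 852, 921 and 769.6 at day 10 and 1145, 1212, 1265 and 1670.5 at day 17. All day 17 grafts lay above all day 10 grafts. The Rnlsmut difference was called (log2 fold change 0.68, SE 0.16, adjusted p = 0.0154) and the WT difference was not (0.42, SE 0.15, adjusted p = 0.0773), while DESeq2 called it too (0.43, adjusted p = 0.0428). With every NK cell thinned to 1000 UMIs, the share with an Fcer1g UMI was 55.8% and 69.7% in WT and 53.6% and 71.4% in Rnlsmut grafts at day 10 and 17. Background calls were 9.07% in WT and 2.67% in Rnlsmut grafts.

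Macrophage transcripts were also counted in the NK cells, and their part in the Fcer1g values was not tested. The 10 macrophage markers, all detected, summed to 107 to 153 CPM in NK cells of Rnlsmut day 10 grafts and to 799 to 1220.0 at day 17, against 221 to 353 and 275 to 424 in WT grafts. Without the 18.8% of NK cells that held a UMI of a macrophage marker, the Rnlsmut difference in Fcer1g was 0.59 (edgeR adjusted p = 0.135). With all NK cells it was 0.68. The call was also lost without Rnlsmut day 10 graft 1 or 4 or Rnlsmut day 17 graft 4 (adjusted p up to 0.0709), and without the filter on low counts (0.56). Tyrobp in NK cells was 1215 ± 92.4 and 1466 ± 212 in WT and 1211 ± 84.9 and 1553 ± 126 in Rnlsmut grafts, with log2 fold changes of 0.18 and 0.32, not called.

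Fcgr3 in NK cells was at 36.3 ± 8.96 and 19.4 ± 9.40 CPM in WT and 43.6 ± 17.3 and 37.7 ± 34.6 in Rnlsmut grafts, too low for the edgeR fit (exact permutation p = 0.0571 between days in WT). Of 44 such exact permutation tests of low members, 0 passed adjustment (lowest adjusted p 0.629) and 2 had an unadjusted p of 0.0286. These were Fcgr1 in NK cells between days in WT (8.59 and 0, 17 and 0 UMIs) and Fcgr4 in NK cells between genotypes at day 10 (3.58 in WT and 0.626 in Rnlsmut grafts, 7 and 1 UMIs). With these graft numbers none of the 44 tests could have passed adjustment, so the tests cannot decide whether these receptors differed.

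ILC1, with 2 grafts per group, were similar to NK cells in Fcer1g, at 1191 ± 285 and 1131 ± 202 in WT and 962 ± 259 and 1366 ± 39.9 in Rnlsmut grafts at day 10 and 17. Tyrobp was at 1015 and 1065 CPM in the WT day 10 and 298 and 215 in the WT day 17 grafts, which did not overlap. In Rnlsmut grafts it was at 1538 and 470.3 at day 10 and 432 and 644 at day 17. The log2 fold changes were -2.13 (SE 0.57, adjusted p = 0.103) and -1.29 (SE 0.54, adjusted p = 0.147), not called by edgeR in the main fit. DESeq2 called the WT difference (-2.16, adjusted p = 0.0193). So did edgeR in some alternative runs, such as with only the 2 groups compared in the fit (-2.13, adjusted p = 0.0418). The 9 NK cell markers summed to 3855 to 4047 CPM in ILC1 of WT day 10 grafts and to 1811 to 3262 in those of WT day 17 grafts, and their part in the Tyrobp values was not tested. Of all ILC1 genes 0.395% passed in WT and 8.76% in Rnlsmut grafts.

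**Figure D5:**
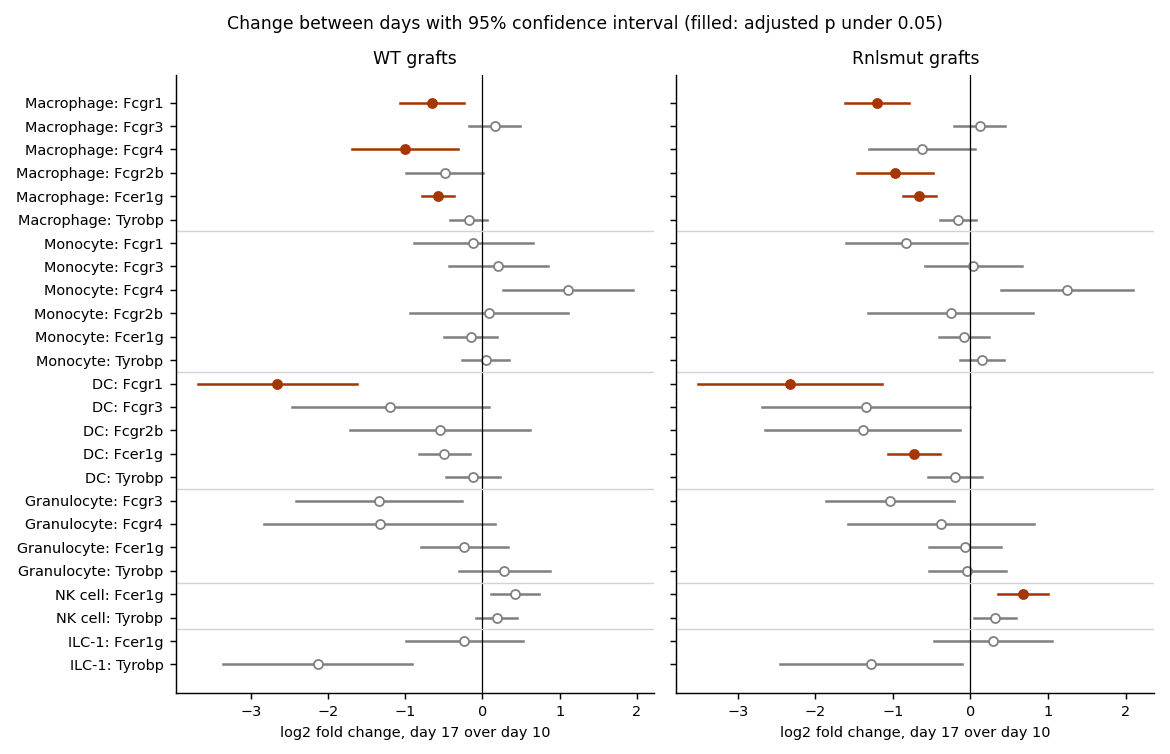
Log2 fold change from day 10 to day 17 with its 95% confidence interval (x axis) for each gene by cell type, WT and Rnlsmut shown separately, filled where the edgeR adjusted p is under 0.05. Calls lie below 0 in macrophages and DCs, and the 1 call above 0 is Fcer1g in NK cells of Rnlsmut grafts.

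The other genes of the pathway were followed in macrophages by list, as counts called between days in WT and in Rnlsmut grafts. The median log2 fold change of all macrophage genes was 0.03 and 0.02, with 25.1% called in WT (1124 higher and 1220 lower) and 42.0% in Rnlsmut grafts (1928 higher and 1995 lower). Whether a list differed from all genes was not tested. No list gene in any of the 6 cell types was called for genotype at day 10 or 17 or for the difference between days, out of 435 tests each (26, 23 and 37 at an unadjusted p under 0.05, and DESeq2 0, 0 and 0).

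Next came a list of receptors, most of which pair with Fcer1g or Tyrobp, with 21 genes tested. In WT 1 was higher and 6 lower (median -0.31), and in Rnlsmut grafts 3 were higher and 9 lower (median -0.70). Trem2, a lipid-sensing receptor of tissue macrophages that signals through Tyrobp, rose by 1.35 (adjusted p = 0.0133) and 1.67 (adjusted p = 0.00185). Trem1, which amplifies inflammatory signals through the same adaptor, fell by 1.45 and 2.51, and Klrk1, the NKG2D receptor, fell by 1.49 and 2.06. Pilrb1 fell by 1.37 in WT grafts. In Rnlsmut grafts Cd300lb rose by 1.08 and Klra8 by 1.75, and Clec9a fell by 3.03. Clec9a, a DC receptor for dead cells, is a gene of the list that pairs with neither adaptor. Klra8, Klrk1 and Clec9a are also markers of NK cells or DCs. The 9 NK cell markers summed to 66.3 to 139.5 CPM in macrophages of Rnlsmut day 10 and 63.0 to 233 in those of Rnlsmut day 17 grafts, and their part in these results was not tested.

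Of the other Fc receptors 4 were tested. In WT grafts none was called, and in Rnlsmut grafts Fcgrt, the neonatal Fc receptor that recycles IgG, rose by 1.16 (adjusted p = 0.0126) and Fcrla fell by 1.39. The medians were 0.25 and 0.45. Hcst, the DAP10 adaptor, rose by 0.70 and 0.77 and was the 1 of 2 other adaptors called.

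Kinases and linkers below the ITAM had 6 of 32 higher and 3 lower in WT and 13 higher and 4 lower in Rnlsmut grafts, with medians of 0.05 and 0.06. Pik3r5, a regulator of PI3 kinase gamma, rose by 0.96 and 1.05, Vav3, an exchange factor for small GTPases, by 0.53 and 0.89, and the docking protein Gab2 by 0.61 and 0.87. Bcl10, a link to NF-kB, fell by 0.70 and 0.36. Fyn fell by 0.51 in WT and Malt1, the partner of Bcl10, by 1.08 in Rnlsmut grafts.

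Inhibitory receptors and phosphatases split, with 3 of 23 higher and 5 lower in WT and 5 higher and 5 lower in Rnlsmut grafts (medians 0.08 and 0.18). Inpp5d, the SHIP1 phosphatase that Fcgr2b recruits, rose by 0.56 (SE 0.16, adjusted p = 0.0154) and 1.22 (SE 0.16, adjusted p = 2.67e-05), and its relative Inppl1 by 1.12 and 0.95. Cd200r1 rose by 0.77 in WT and Clec4a1 by 0.88 in Rnlsmut grafts. Siglecg fell by 2.65 and 3.96 from a low level (3.73 CPM over all grafts). Cd300lf and Pilra fell by 1.32 and 1.10 in WT, and Lilrb4a and Ptpn6, the SHP-1 phosphatase, by 0.61 and 0.67 in Rnlsmut grafts.

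Uptake and oxidase genes had 3 of 19 higher and 2 lower in WT and 4 higher and 3 lower in Rnlsmut grafts (medians -0.04 and -0.03). C5ar1, the complement C5a receptor, rose by 0.99 and 1.04. Cd36 and Mertk, which take up lipids and dying cells, rose by 1.43 and 0.74 in WT grafts, and C3ar1 and Lamp2 by 0.99 and 0.36 in Rnlsmut grafts. The NADPH oxidase subunits Cyba and Ncf4 fell by 0.65 and 0.46 in WT and by 0.72 and 0.58 in Rnlsmut grafts, where Cd14 fell by 0.49.

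Of 13 transcription factors known for Fc receptor genes, 4 were higher and 3 lower in WT and 5 higher and 3 lower in Rnlsmut grafts (medians 0.31 and 0.16). Irf8, an interferon regulatory factor of myeloid cells, fell by 1.03 and 0.78, and its relative Irf1 by 0.56 in WT grafts. Fli1 and Ikzf1 rose by 0.96 and 0.52 in WT and by 1.76 and 1.02 in Rnlsmut grafts, Cebpa rose by 0.69 in WT, and Runx1 rose by 1.06 and Cebpb fell by 0.66 in Rnlsmut grafts. Whether these factors bind the windows was not measured.

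In the other cell types fewer list genes were called, as were fewer genes in all. Monocytes had 10 of 109 higher and 2 lower in WT and 4 higher and 3 lower in Rnlsmut grafts, beside 3.84% and 3.19% of all genes. Cd36 rose by 2.05 and 2.10 and Klrk1 fell by 1.50 and 1.96, and in WT grafts the Fcer1g-coupled Lilra5 rose by 3.32 and Cd300ld by 1.76. DCs had 6 of 74 higher and 7 lower in WT and 10 and 10 in Rnlsmut grafts, beside 10.2% and 14.6%. There Clec9a rose by 1.61 and 1.86, Inpp5d by 1.60 and 1.85, and the fungal receptor Clec4n, an Fcer1g partner, fell by 2.44 and 2.19, beside the cluster shares given above, whose part was not tested. NK cells had 8 of 56 higher and 2 lower in WT and 4 and 0 in Rnlsmut grafts, beside 9.07% and 2.67%. Inpp5d rose by 1.72 and 1.06, the natural cytotoxicity receptor Ncr1 by 0.87 in WT, and the CD3 zeta chain Cd247 by 1.18 in Rnlsmut grafts. The T cell genes Cd3g and Cd3d rose in NK cells as well, by 0.99 in WT and 1.42 in Rnlsmut grafts. The 11 T cell markers, all detected, summed to 797 to 1004 and 834 to 1010.0 CPM in NK cells of WT and Rnlsmut day 10 grafts and to 1012 to 1796 and 1014 to 1444.5 at day 17, and their part in these results was not tested. ILC1 had 0 of 37 in WT and 1 higher and 2 lower in Rnlsmut grafts, beside 0.395% and 8.76%, and granulocytes 0 of 45 in both, beside 2.7% and 2.8%. Over all types, list calls between days numbered 72 of 435 in WT and 91 in Rnlsmut grafts, where 12.2% and 18.2% of all tests passed.

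The genes whose levels over the 12 cell types were most like each member were found by Pearson's r of mean log2(CPM + 1), among 6371 genes reaching 50 CPM in at least 1 type. The 12 points share libraries and the same clustering, so r is descriptive. They include B cells (35 cells in all) and mast cells (13), although no graft held the minimum number of either required for levels. The points of these types therefore rest on few cells, and their part in r was not tested. The most similar genes were Ms4a6d (0.984), Apobec1 (0.980) and Acp2 (0.979) for Fcgr1, and Igsf6 (0.994), F10 (0.993) and Slc11a1 (0.992) for Fcgr4. Fcgr2b was closest to Snx24 (0.985), Hebp1 (0.983) and Creb5 (0.976), and Fcgr3 to Fbxo30 (0.973), Rab31 (0.964) and Ccl6 (0.955). No receptor had another receptor among its 3 nearest. The adaptors were near each other (0.946), with Lrmda (0.975) and Vegfa (0.958) ahead of Tyrobp for Fcer1g, and Lrmda (0.967) and Rnf130 (0.958) ahead of Fcer1g for Tyrobp.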

How the data were processed

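Immune cells of 16 NIT-1 grafts were profiled by droplet single-cell RNA sequencing with hashtags. The values the authors deposited are unnormalized UMI counts, 1 for each gene in each cell, beside the cell type, cluster and hashtag of every cell, used here as given. The submitters' processing notes name Cell Ranger and mm10, with no version or role. Filters on cells and hashtag calls are not given in the sources used here, and hashtag counts were not analysed here.

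UMIs were summed per graft and cell type for grafts with at least 10 cells, and types with at least 2 grafts per group were fitted with edgeR 4.0.16 (TMM, filterByExpr, quasi-likelihood) in R 4.3.3, with the 4 groups in 1 fit. P-values were Benjamini-Hochberg adjusted over all genes of a type, with a threshold of 0.05. DESeq2 1.42.0 was an alternative. Members below the filter, and receptor ratios (0.5 UMIs added), had two-sided exact permutation tests in SciPy 1.17.1 (Python 3.11.15), which for 4 against 4 grafts cannot go below 0.0286. For shares of cells with a UMI, cells were thinned to 1000 UMIs. Scrublet (scanpy 1.11.5) called 1 cell at its own threshold (0.00446%), so it had not worked and doublets were kept, with the top 6% of scores per library (1275 cells) left out as an alternative. The edgeR script was first tested on simulated data.

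All 6 members are named. Of 7 pathway lists, at most 3 genes per list, direction and comparison are named, those with the smallest p among the called, and some called genes that this rule names are not reported here. The 3 most similar genes per member are those with the highest r. Members, lists and motifs were chosen with earlier results of these data known.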

Additional observations from a re-analysis of the deposited data

Results flagged for a closer look

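In 4 of 74 groups of 4 grafts, 1 graft stood far from the others by Dixon's test at 95%, and chance flags about 1 group in 20. Fcer1g in NK cells was 1555 CPM in WT day 17 graft 2, against 1090.5 to 1118 in the others of its group. Fcgr2b in monocytes was 234 in Rnlsmut day 17 graft 3, which had 28 monocytes, against 73.0 to 97.2. Fcgr2b in DCs was 13.3 in Rnlsmut day 17 graft 4, from 15 cells and 1 UMI, against at least 29.0 in the others. Fcgr3 in macrophages was 396 in Rnlsmut day 10 graft 4, against 326 to 334.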

How the results depend on the processing

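The genotype counts at both days and the count for their difference were 0 of the members in every alternative run. The numbers of ratio and low-count tests that passed were also 0 in every alternative run. No low-count test could have passed adjustment with these graft numbers, and a ratio test only if many ratios had reached the lowest p at once. These counts of 0 therefore do not measure stability. Between days in WT the count of 4 became 7 with DESeq2 and 8 without the filter on low counts, and 2 to 7 when 1 graft was left out: 2 without WT day 10 replicate 3, WT day 17 replicate 1 or WT day 17 replicate 4, and 7 without WT day 17 replicate 3. In Rnlsmut grafts the count of 6 was 7 with DESeq2, 9 without the filter and 5 to 9 with 1 graft left out. Likely doublets left out gave 5 and 6. Directions turned for Fcgr2b in WT monocytes without WT day 17 replicate 3 (-2.19, with a range of -2.19 to 0.84 over the grafts left out), for Fcer1g in WT macrophages within cluster 4 (0.027) and cluster 5 (0.17), and for Fcgr4 in WT macrophages within cluster 12 (0.15), and the cause was not tested. The type with the highest level was kept for 4 of 6 members with UMIs pooled over grafts, 5 with a minimum of 1 cell and 6 with 20.

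With the hashtag number as a replicate block, the counts were 0, 0, 4, 7 and 0 for the 2 genotype comparisons, the day comparison in WT and in Rnlsmut grafts, and the difference. The numbers are not shown to pair grafts: correlations of same-numbered grafts' deviations ran from -0.24 to 0.34. The difference between days was not run on 2 groups, since it needs 4. Depth limits the receptors in NK cells and ILC1 most, where many grafts held 0 to 9 UMIs of a receptor.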

Other observations

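Outside the 6 cell types compared, stem and progenitor cells held Fcer1g at 239 ± 231 and Tyrobp at 277 ± 286 CPM, with a spread over grafts as large as the mean. In CD4 T cells Tyrobp was at 26.6 in WT day 10, 11.6 in Rnlsmut day 10, 22.4 in WT day 17 and 79.9 in Rnlsmut day 17 grafts, and in CD8 T cells Fcer1g was at 49.9, 24.6, 33.5 and 71.7 in the same order. The part of transcripts from other cells in these T cell values was not tested.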
